A study of Drosophila melanogaster with 4 samples.

Results

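Chromosome arm 2L is the left arm of the second chromosome of Drosophila melanogaster, and the regions described here are those of 2L that were enriched in ChIP-seq with an antibody to the histone variant H2Av. They are the entries of the replicate-set list placed on 2L itself, without the separate heterochromatic scaffold of that arm: 935 of the 6065 enriched regions of that list. The same arm held 829 of 5019 regions in ChIP replicate 1 and 819 of 5037 in replicate 2. Membership rests on position alone, so width, spacing, cover and score were not used to choose the regions.

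All 4 samples came from S2-DRSC cells, a male line from late embryos. Every culture, inputs included, was treated with double-stranded RNA against H2Av (CG5499), 50 µg at first and 200 µg after about 4 days, and was then fixed with formaldehyde. The 2 ChIP samples used the rabbit polyclonal antibody 9751, raised against an H2Av peptide, and the other 2 are input DNA, whose values were not analysed here. The title and source name of ChIP replicate 2 call it ChIP, whereas its description field reads as input, so its values rest on the title. No untreated cells were analysed here, so the regions describe RNAi-treated cells, and how much H2Av remained in them was not measured.

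H2Av is the only H2A variant of this fly and takes on the work that H2A.Z and H2A.X share in mammals. As an H2A.Z it sits in nucleosomes near the starts of active genes, and as an H2A.X it is phosphorylated near DNA breaks; in flies it has also been linked to the formation of heterochromatin. A chromosome arm of this fly runs from gene-rich euchromatin at the tip to repeat-rich pericentric heterochromatin at its base, so 2L holds both settings on 23.0 Mb of assembled sequence.

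H2Av regions on 2L were numerous, mostly a few kilobases wide, and covered just under 20% of the arm. They covered 4.39 Mb (19.1%) in replicate 1 and 4.32 Mb (18.8%) in replicate 2, a mean of 18.9% ± 0.209 (SD, n = 2). The median width was 3668 bp in replicate 1 and 3709 bp in replicate 2, or 3688.5 ± 29.0 bp (SD, n = 2). The middle part of the distribution, from the lower to the upper quartile, ran from 2292 to 6234 bp in replicate 1 and from 2318 to 6343.5 bp in replicate 2. The replicate-set list had a nearly equal median of 3683 bp but reached lower and higher, from 1001 to 60381 bp, and covered 22.5% of the arm. The score, which is the authors' own value per region, was higher for wider regions: across regions, which share their library, Spearman's rho was 0.72 in replicate 1 and 0.70 in replicate 2.

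Broad regions were a minority by number and a large share by length. Regions of 10 kb or more numbered 87 in replicate 1 (10.5%) and 86 in replicate 2 (10.5%), against 9.70% and 9.41% of the regions on all chromosomes. They made up 33.5% and 33.4% of the covered sequence of 2L. In the replicate-set list 108 regions (11.6%) were that broad, against 11.5% over all chromosomes, and they made up 39.2% of its cover. Shares of broad regions on 2L therefore lay close to those of each whole list, which includes 2L itself. In the replicates, the share on 2L lay above those on 3L (7.49%), 3R (9.52%) and X (8.17%; means of both replicates). In the replicate-set list the shares were 10.0% on 3L, 11.9% on 3R and 11.2% on X.

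Gaps between neighbouring regions ranged widely. The median gap was 3593.5 bp in replicate 1 and 3647 bp in replicate 2 (3620.25 ± 37.8 bp; SD, n = 2), with quartiles of 1140 and 13110 bp in replicate 1 and 1282.75 and 14032 bp in replicate 2. Gaps of at most 1 kb made up 22.0% and 20.4% of all gaps, and runs of regions joined by such gaps took in 320 of the 829 regions of replicate 1 and 290 of the 819 of replicate 2. At the other end, 92 gaps in replicate 1 and 97 in replicate 2 were 50 kb or longer. These few gaps took up 13.4 and 13.7 Mb, which is 58.4% and 59.4% of the arm. More than 50% of 2L thus lay in stretches of at least 50 kb without a called region. Regions with no neighbour within 20 kb on either side numbered 43 in replicate 1 and 46 in replicate 2.

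The replicates placed their regions at nearly the same positions. In replicate 1, 758 regions (91.4%) overlapped a region of replicate 2 by at least 1 bp, against 90.1% over all chromosomes. In replicate 2, 758 regions (92.6%) overlapped a region of replicate 1, against 91.6% over all chromosomes. Sequence common to both came to 4.04 Mb, or 92.0% of the cover of replicate 1 and 93.4% of the cover of replicate 2. Among 604 pairs that matched one to one, the median shift was 104 bp at the left edge and 101.5 bp at the right edge, and both edges lay within 200 bp in 294 pairs (48.7%). In these pairs the median shifts were thus a fraction of the median region width, and the 90th percentiles were 587.1 and 716.4 bp. Regions that overlapped several regions of the other replicate, 57 in replicate 1 and 60 in replicate 2, were not among the pairs. Regions without a counterpart were narrow: the 71 of replicate 1 had a median width of 1603 bp against 4014.5 bp for its shared regions, and none exceeded 3366 bp. The 61 of replicate 2 had a median of 1490 bp against 3939 bp, and none exceeded 3615 bp.

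Of the 935 replicate-set regions, 652 (69.7%) overlapped both replicates, against 65.7% over all chromosomes. Another 58 overlapped replicate 1 only and 51 replicate 2 only, while 174 (18.6%) overlapped neither, against 21.8% over all chromosomes. These counts are a description, since the list stands for the same replicates it is set against. Regions in both replicates had a median width of 4943 bp and held 90.8% of the cover, and those in neither had a median of 1291 bp and held 4.73%. Median scores were 1.21 and 0.40 in these 2 classes, and 0.38 for regions in 1 replicate. Every region of either replicate on 2L overlapped a replicate-set region. Of the 174 in neither replicate, 88 were narrower than 1303 bp, the narrowest region that either replicate held on 2L, so a separate entry of that width is not found in the replicate lists at any score.

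**Figure D1:**
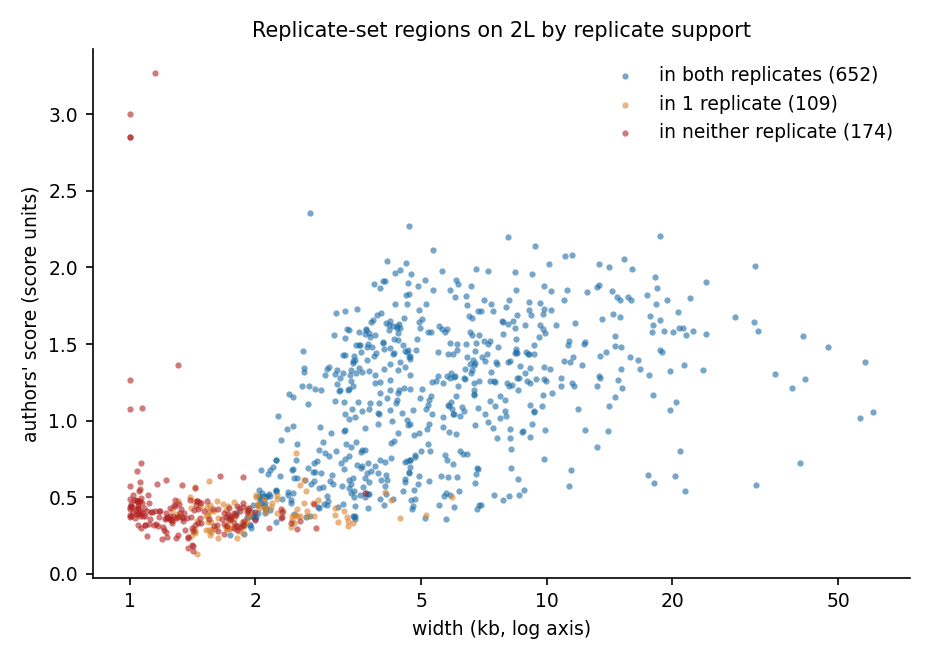
Each point is 1 of the 935 replicate-set regions on 2L, with its width in kb on a log axis and the authors' score; colours give whether it overlapped both replicates (652), 1 replicate (109) or neither (174). Regions in neither replicate sit at the narrow, low-score end (median 1291 bp, median score 0.40), apart from a few regions about 1 kb wide with scores up to 3.27.

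Some replicate-set regions spanned several regions that the replicates listed separately. How the replicate-set list was made is not stated, so this describes overlap only. Of its 652 regions in both replicates, 534 corresponded to a single region in each, with a median width of 4390 bp. The other 118 spanned 2 or more regions of at least 1 replicate and had a median width of 9852 bp. The widest entries were mostly of this second kind.

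Cover was uneven from the tip to the base of the arm. In 230 fixed windows of 100 kb, the median window was covered to 12.8% in replicate 1 and 12.7% in replicate 2, with a maximum of 89.7% for the mean of both. No region was found in 51 windows of replicate 1 and 50 of replicate 2, and 49 windows (21.3%) were empty in both. At least 50% of the window was covered in 23 windows of replicate 1 and 22 of replicate 2, 20 of them (8.70%) the same windows. The 23 most covered windows, 10% of all, held 34.6% of the windows' cover in replicate 1 and 35.1% in replicate 2. Windows varied far more along the arm than between replicates: the median absolute difference between replicates was 0.691 percentage points and the largest 9.24 points. Over the 230 windows the replicates had a Spearman correlation of 0.995, a description of windows that share the same sequence. Neighbouring windows were only loosely alike, with a Spearman correlation of 0.32 over 229 neighbouring pairs in each replicate.

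**Figure D2:**
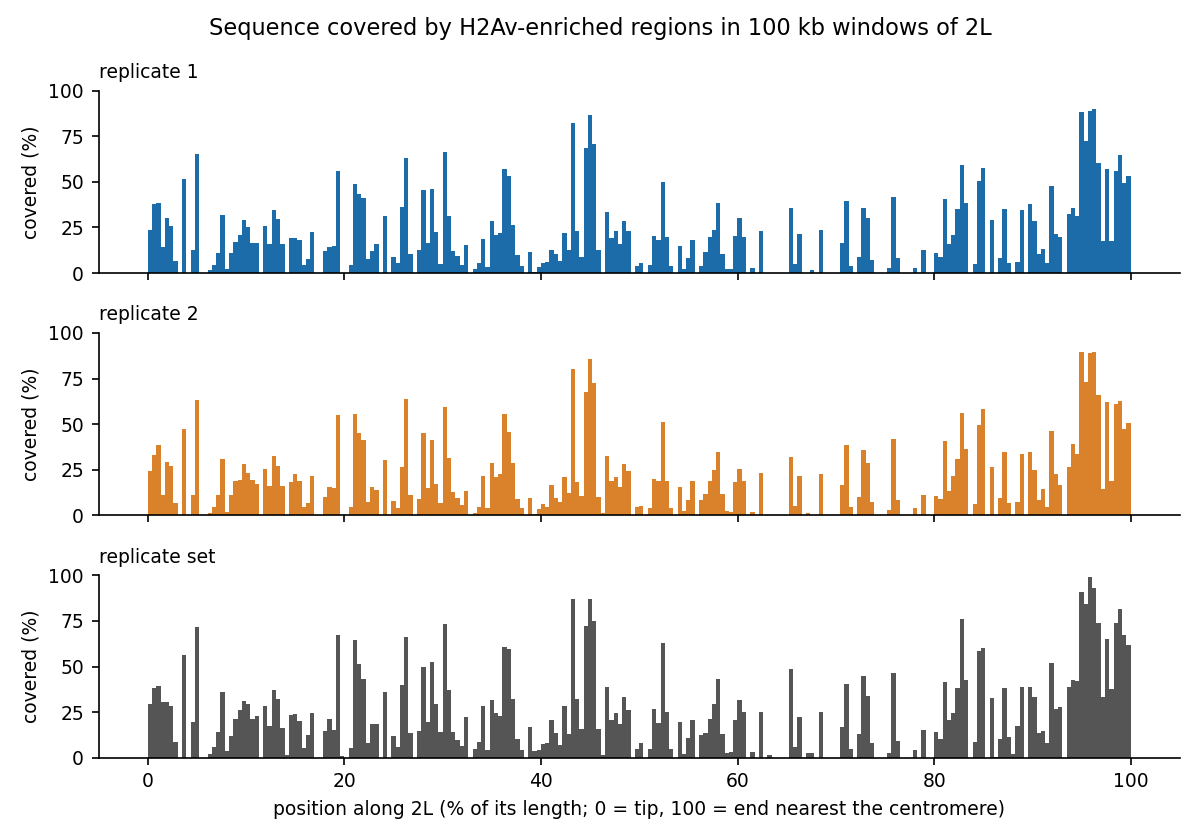
Percent of each 100 kb window of 2L covered by enriched regions, for replicate 1, replicate 2 and the replicate set, against position as percent of the arm's length from the tip (0) to the end nearest the centromere (100). Cover is highest close to the base, where windows reach 89.7% (mean of the replicates), a separate group of high windows stands near the middle, and windows between about 60 and 80% of the length are mostly low or empty.

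Seen at a larger scale, cover was moderate towards the tip, lowest beyond the middle of the arm and highest at the base. Divided into 10 equal parts, 2L was covered to between 15.9% ± 0.0634 and 24.9% ± 0.180 in the first 5 parts (SD, n = 2 each). The next was covered to 13.1% ± 0.000676, and the lowest, at 13806927 to 16108081, to 6.67% ± 0.173 (SD, n = 2 each). The part after it, at 16108082 to 18409235, had 9.11% ± 0.0233, the last but one 21.4% ± 0.407 and the last 41.7% ± 0.0810 (SD, n = 2 each). The number of regions per Mb had the same shape, from 13.5 ± 1.23 in the part at 13806927 to 69.5 ± 0.615 in the last (SD, n = 2 each). Mean width changed little by comparison, between 4321 ± 87.2 bp in the part at 11505773 and 6005 ± 64.7 bp in the last (SD, n = 2 each). The median score lay between 1.08 ± 0.0285 and 1.35 ± 0.0218 in the other 9 parts and was 0.68 ± 0.0238 in the last (SD, n = 2 each). Differences in cover along the arm thus went with the number of regions more than with their width.

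**Figure D3:**
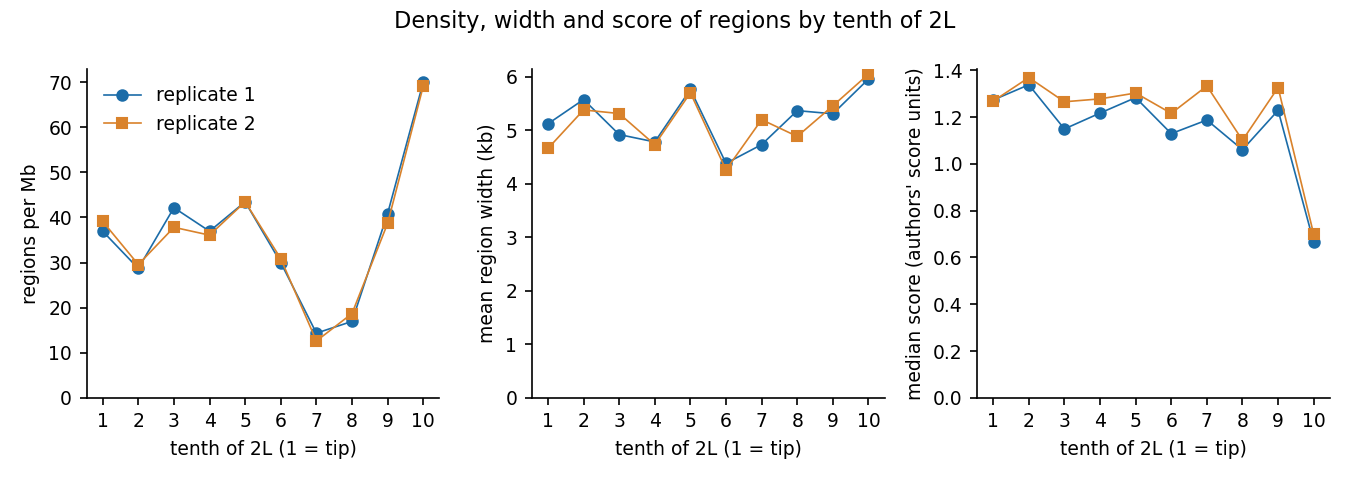
Regions per Mb, mean width in kb and median score in 10 equal parts of 2L, from the tip (1) to the base (10), for replicate 1 (circles) and replicate 2 (squares). Density is lowest in part 7 (13.5 per Mb) and highest in part 10 (69.5 per Mb), while the median score is lowest in part 10 (0.68).

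The part of 2L nearest the centromere was denser in regions than the rest, and their scores were lower. In the 20% of the arm from 18409236 to its end, 31.7% of the sequence was covered in replicate 1 and 31.5% in replicate 2, against 15.9% and 15.6% of the rest. The ratio was 1.99 in replicate 1 and 2.02 in replicate 2. Regions per Mb were 1.78 and 1.74 times as frequent there, and the mean region was 1.12 and 1.16 times as wide, while median widths were close (3661 against 3673.5 bp in replicate 1, and 3811.5 against 3660 bp in replicate 2). The median score went the other way, with 0.83 against 1.22 in replicate 1 and 0.86 against 1.26 in replicate 2. These 20% join 2 unlike parts. The last 10% of the arm had a median score of 0.68 ± 0.0238 and 69.5 ± 0.615 regions per Mb (SD, n = 2 each). In the 10% before it these were 1.28 ± 0.0689 and 39.8 ± 1.54 (SD, n = 2 each), so the lower score lay in the last 10%. Among regions at or above the median score of each list the cover ratio was 1.52, and whether the score or its threshold accounts for part of the proximal cover was not tested.

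On 3L, 3R and X, which were set beside it, the same ratio was smaller. The ratio of proximal to distal cover was 1.45 ± 0.00428 on 3L, 1.24 ± 0.00379 on 3R and 0.921 ± 0.0333 on X, against 2.00 ± 0.0177 on 2L (SD, n = 2 each). The ratio of mean widths was 1.00 ± 0.00703 on 3L, 1.01 ± 0.0101 on 3R and 0.946 ± 0.0393 on X, against 1.14 ± 0.0283 on 2L (SD, n = 2 each). Values of 2L lay above those of the other 3 in both replicates, but arms are not replicates and this order was not tested. The most covered 10% of windows held 34.8% ± 0.376 of the cover on 2L, 29.4% ± 0.0560 on 3L, 28.9% ± 0.184 on 3R and 28.1% ± 0.161 on X (SD, n = 2 each). Empty windows made up 22.0% ± 0.307 of 2L, 18.4% of 3L in both replicates, 19.4% ± 0.507 of 3R and 14.5% ± 0.316 of X (SD, n = 2 each). Total cover was 18.9% on 2L beside 18.0% on 3L, 18.3% on 3R and 18.4% on X. A lower median score near the centromere was not particular to 2L. Proximal and distal median scores were 0.84 and 1.24 on 2L, and 0.99 and 1.25 on 3L (means of both replicates). They were 1.20 and 1.27 on 3R, and 1.24 and 1.35 on X.

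**Figure D4:**
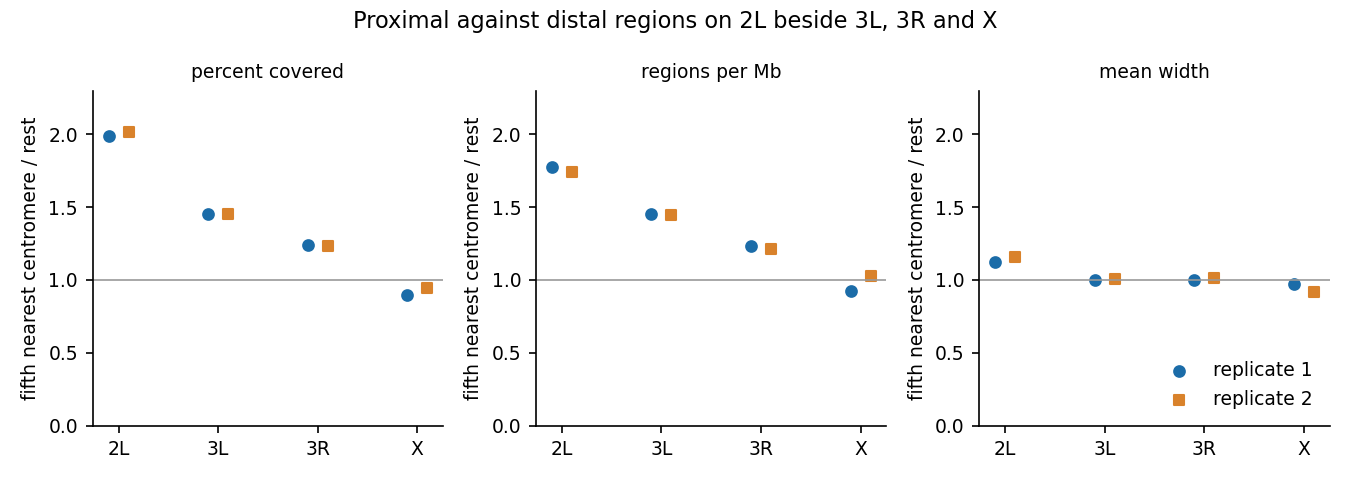
Ratio of the 20% nearest the centromere to the rest of the chromosome for percent covered, regions per Mb and mean width, on 2L, 3L, 3R and X; circles are replicate 1, squares replicate 2, and the line marks a ratio of 1. 2L has the highest points in each panel, with cover ratios of 1.99 and 2.02.

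The longest run of windows covered to at least 50% in both replicates had 5 windows, from 21.8 to 22.3 Mb. It was covered to 79.8% in replicate 1 and 81.4% in replicate 2, and to 88.2% in the replicate set. The window before it was covered to 32.5% ± 1.49 and the one after it to 16.1% ± 2.09 (SD, n = 2 each), so cover changed steeply at both ends. Within it, 38 regions of replicate 1 had a median width of 6121.5 bp and 39 of replicate 2 a median of 6155 bp, against 3724.5 and 3747 bp in the 90% of the arm nearest the tip. It held 76.0 and 78.0 regions per Mb, and the median gap inside it was 1413 bp in replicate 1 and 1148.5 bp in replicate 2.

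Scores in this stretch were low for regions so wide. The median was 0.73 in replicate 1 and 0.72 in replicate 2, against 1.22 and 1.26 in the 90% nearest the tip. Regions of 10 kb or more in the stretch, 14 in replicate 1 and 16 in replicate 2, had median scores of 1.21 and 1.11, against 1.59 for 64 regions and 1.69 for 60 regions as broad in that larger part. The stretch was thus built from wide, closely spaced regions with lower median scores than in the 90% nearest the tip. It was singled out after the values were seen, and no test is given.

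From 22.3 Mb to the end of the assembled arm, cover was lower and more broken. It was 44.3% in replicate 1 and 44.6% in replicate 2, with 62 and 67 regions, which is 87.1 and 94.2 per Mb. These regions were narrower, with medians of 2171.5 and 2252 bp and median scores of 0.66 and 0.67. A second run, at 22.6 to 22.8 Mb, was covered to 60.1% and 61.8%. Single windows at 22.4 to 22.5 Mb (59.5% ± 3.64) and 22.9 to 23.0 Mb (52.0% ± 1.99; SD, n = 2 each) also passed 50%. On the tip side of the 500 kb stretch, from 20710391 to 21.8 Mb, cover was 22.5% and 21.8%, and the window at 21400001 to 21500000 was empty in all 3 lists.

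**Figure D5:**
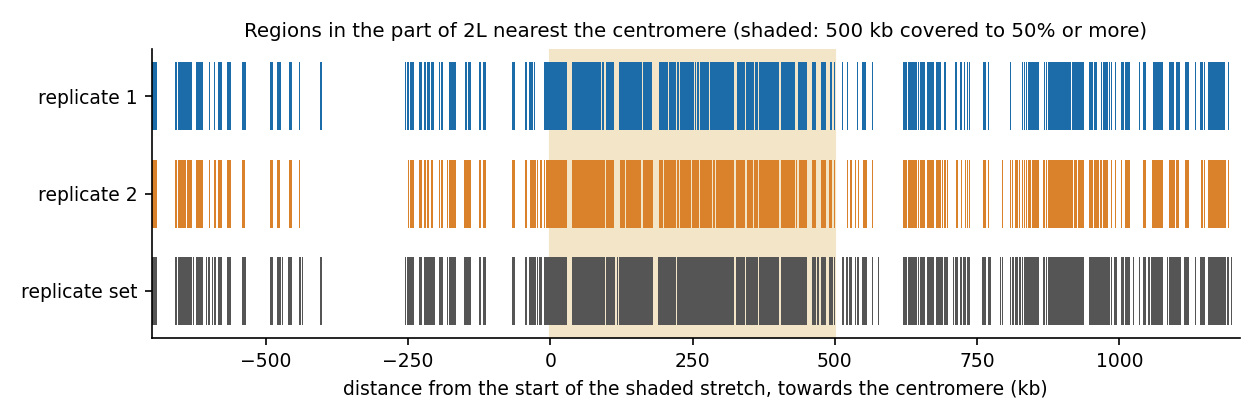
Regions of replicate 1, replicate 2 and the replicate set around the longest run of highly covered windows on 2L, drawn to scale against distance in kb from its start; the shaded band is the 500 kb run of windows covered to at least 50% in both replicates. Bars nearly fill the band (79.8% and 81.4% in the replicates) and become narrower and more separate beyond it.

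Outside the base, a run of 3 windows at 10.2 to 10.5 Mb stood near the middle of the arm. It was covered to 75.3% in both replicates, between windows of 9.51% ± 1.29 and 11.3% ± 1.99 (SD, n = 2 each). A single window at 9.9 to 10.0 Mb, covered to 82.4% in replicate 1 and 80.2% in replicate 2, lay 200 kb before it. The 23 replicate-set regions that touched the run had a median score of 1.48, against 0.80 for the 25 regions of the stretch at 21.8 to 22.3 Mb and 0.80 for all of 2L in that list. High windows could also border empty ones. The window at 1.1 to 1.2 Mb (64.4% ± 1.41) was followed by 2 empty windows, that at 4.4 to 4.5 Mb (55.3% ± 0.680) by 2, and that at 19.5 to 19.6 Mb (57.8% ± 0.334) by 1 (SD, n = 2 each).

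The 10 widest replicate-set regions ranged from 32073 to 60381 bp, and 7 of them lay in the 20% nearest the centromere. In order of width these 7 began with 22063152 to 22123532 (60381 bp), 22680580 to 22738518 (57939 bp) and 21837574 to 21893900 (56327 bp). The other 4 were 21920606 to 21962160, 22022722 to 22063142, 21791520 to 21830146 and 22167264 to 22202410. All but the second of the 7 fell in or at the edge of the stretch at 21.8 to 22.3 Mb. The remaining 3 were 10411776 to 10459064 (47289 bp), 4431398 to 4472438 (41041 bp) and 17476310 to 17508382 (32073 bp).

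Some of these wide regions matched a single replicate region and others spanned several. In both replicates 7 of the 10 overlapped 2 or more separate pieces. The widest overlapped 3 pieces in replicate 1 and 6 in replicate 2, together covering 97.2% and 95.6% of it. The region at 21837574 held a piece of 52244 bp in replicate 1, the widest region of that list on 2L, and one of at most 32701 bp in replicate 2. The 3 others were single regions in both replicates. Of these, 21791520 to 21830146 was 38589 bp wide in replicate 1 and 37012 bp in replicate 2, and 22167264 to 22202410 was 34934 and 34946 bp. That at 17476310 to 17508382 was 31958 and 31901 bp wide. It ended where a stretch without regions of 453.9 kb in replicate 1 and 452.8 kb in replicate 2 began.

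The highest-scored regions were not the widest ones, although the medians of both sets lay above the arm's medians in width and score (3683 bp and 0.80 in the replicate set). The 10 highest-scored replicate-set regions found in both replicates had widths from 2713 to 18687 bp (median 8711 bp) and scores from 2.04 to 2.35, while the 10 widest had a median score of 1.29. Of the 10, 8 lay in the 50% of the arm nearest the tip. The highest was the exception nearest the base, 22792374 to 22795086 (score 2.35), of which 73.4% was covered in replicate 1 and 63.4% in replicate 2. It was followed by 3169020 to 3173696 (2.27), 11986530 to 12005216 (2.20) and 6044092 to 6052156 (2.20). The others were 2764068 to 2773424 (2.14), 1978550 to 1983898 (2.11), 6061242 to 6072722 (2.08), 2570772 to 2581824 (2.07), 4380652 to 4395934 (2.05) and 9936648 to 9940782 (2.04). Apart from the highest, each was covered to at least 94.3% in both replicates. No region was both among the 10 widest and among these 10.

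A few very narrow regions scored higher still but were found in neither replicate. The highest-scored regions in neither replicate were 22573710 to 22574860 (score 3.27), 22790464 to 22791466 (3.005), 4540404 to 4541404 (2.85), 10862894 to 10863894 (2.85) and 22788226 to 22789530 (1.36). They were 1001 to 1305 bp wide, and for 4 of the 5 exactly the same score was given to another region of the list. Such repeated scores belonged to 88 of the 935 replicate-set regions on 2L (9.41%). They fell on 49 of the 174 regions in neither replicate, on 17 of the 652 in both, and otherwise on regions in 1 replicate. Of the 5, 3 lay in the 20% nearest the centromere.

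The 4 longest stretches without a region lay between 14 and 18 Mb and had nearly the same limits in both replicates. The longest ran from 14364026 to 15002088 in replicate 1 (638.1 kb) and from 14364558 to 15003286 in replicate 2 (638.7 kb). In the replicate set it was interrupted by a single region at 14587206 to 14588982, of 1777 bp and score 0.40, which neither replicate held. That left 14588983 to 15001695 (412.7 kb) as the third longest stretch of that list. The next was 482.7 kb in replicate 1 (15773573 to 16256242), 482.6 kb in replicate 2 (15773679 to 16256293) and 482.5 kb in the replicate set (15773739 to 16256241). The stretch from 16919087 to 17383261 in replicate 1 (464.2 kb) was matched by 16919089 to 17383306 in replicate 2 (464.2 kb) and by 16919249 to 17383251 in the replicate set (464.0 kb). The edges of these last stretches differed by less than 200 bp between the lists.

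Windows without a region in either replicate formed 33 separate runs, 8 of them 2 or more windows long. The longest were 14.4 to 15.0 Mb (6 windows), 15.8 to 16.2 Mb (4 windows), and 17.0 to 17.3 Mb and 17.6 to 17.9 Mb (3 windows each). Runs of 2 windows lay at 1.2 to 1.4, 3.9 to 4.1, 4.5 to 4.7 and 18.2 to 18.4 Mb. In the 50 windows from 14 to 19 Mb, 24 were empty in both replicates, of 49 on the whole arm. Of those 49, 5 held some cover in the replicate set. Read depth behind the lists is unknown, so an empty window shows that no region was called there, not that H2Av was absent.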

How the data were processed

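H2Av ChIP-seq of 2 replicates was analysed as 3 deposited lists of enriched regions, 1 for each replicate and 1 for the replicate set. Coordinates are those of FlyBase release 5, per the file headers. The submitters' processing notes name Bowtie 0.12.7. The authors deposited 1 score with each region. How it was computed, the caller, the threshold and any use of the inputs are not stated in these sources, so scores only describe and rank regions within a list. The lists hold no counts, so depth is unknown.

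Samples were grouped by title. The description of ChIP replicate 2, an analysed library, names input DNA; for input replicate 1 and ChIP replicate 1 the same field mentions ChIP DNA as well as input DNA. The labels do not say whether replicates were separate cultures, so their spread may be technical. Regions on 2L were taken from each list, leaving out 1 row marked as depletion on another arm. Overlap was counted from 1 bp. Gaps were counted between neighbouring regions, and cover in 230 windows of 100 kb from the tip; the last 11544 bp fill no window. Regions were assigned to parts of the arm by their midpoints. The centromere lies at the high coordinates of 2L, 3L and X and the low ones of 3R. Named regions were the 10 widest, the 10 highest-scored in both replicates, the 5 highest-scored in neither, the 3 longest stretches per list and runs of 2 or more high or empty windows; single windows were named after their values were seen. All replicates belong to one group and no values of the inputs were used, so no test was made; values are given per replicate or as mean and SD (n = 2). The arm, the measures and the lists were chosen with earlier results of these data known. Alternatives were merging within 200 bp, the replicate-set list, regions from the median score upward, overlap of 50% of both regions, a smaller proximal part, shifted windows and leaving out a replicate. Calculations were tested on simulated data. No release 5 genome or annotation was used here, so no genes or sequences are given. The software was pandas 2.3.3, scipy 1.17.1, numpy 2.4.6 and matplotlib 3.10.9 under Python 3.11.15.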

Additional observations from a re-analysis of the deposited data

How the results depend on the processing

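No called result could reverse, since no test was made. Of 35 alternative values that keep both replicates, 15 stayed within a set limit and 20 moved beyond it. The limit was the replicate SD, for counts 1.5 times the main value, and for the replicate-set share its 95% Wilson interval. Counts inside that limit could still move by more than their replicate SD. The replicate-set list changed the regions from 824 to 935 (SD 7.07) and windows covered to 50% or more from 22.5 to 29 (SD 0.707). Windows starting 50 kb from the tip gave 17.5 such windows. Empty windows rose from 50.5 to 70.5 (SD 0.707) with regions from the median score upward. With regions 200 bp or less apart merged, the median width became 3848.5 bp, the median gap 4060 bp and the median score difference (last 10% of the arm minus the rest, -0.56) -0.54. The replicate-set list moved the median gap to 2905 bp, cover to 22.5%, the proximal cover ratio to 2.04, the share of cover in the top 10% of windows to 33.1% and the score difference to -0.38. Keeping regions from the median score upward moved the median width to 5472.25 bp, the median gap to 11463 bp, cover to 13.1%, the proximal ratio to 1.52, windows covered to 50% or more from 22.5 to 7, the share of regions common to the replicates from 92.0% to 94.9%, the replicate-set share in both from 69.7% to 79.5% and the share of cover in the top 10% of windows to 36.4%. Requiring 50% of both regions to overlap moved these shares of regions to 82.2% and 62.5%. For the 10% nearest the centromere the ratio was 2.55, and by regions per Mb it was 1.76. Without replicate 1 or replicate 2, the replicate-set share ran from 75.2% to 75.9%, since overlap with a single list is then enough. The score difference and the share of cover in the top 10% of windows were chosen after the data were seen. For all of these, the cause was not tested. No paired analysis was possible because no region list of an input sample was used here. Depth is unknown, so a weak region found in 1 replicate may have gone uncalled in the other.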

Other observations

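Some regions on 2L stood alone, with at least 20 kb free on both sides. Their median width was 2970 bp for 43 regions in replicate 1 and 4056 bp for 46 regions in replicate 2, and their median scores were 1.03 and 1.19. The replicate set had 45 of them, of median width 2845 bp and median score 0.66.

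Runs joined by gaps of at most 1 kb were short. There were 138 runs of 2 or more regions in replicate 1, none with 5 or more, and 123 in replicate 2, 2 of them with 5 or more. The replicate set had 167, of which 5 reached 5 regions and none had more; those 5 spanned 12593 to 38023 bp. In replicate 2 the 2 longest runs by number held 7 regions each and spanned 30340 and 40560 bp. The wider, at 22049393 to 22089952, lay in a part of the arm where the replicate-set list had regions of 40421 and 60381 bp separated by 9 bp.

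Successive 20% parts of the arm from the tip held 181, 215, 187, 81 and 271 replicate-set regions. Differences in replicate support between these unequal parts were not tested. In the replicate-set list, the share of regions found in both replicates was 73.5%, 68.4%, 73.8%, 72.8% and 64.6% in successive 20% parts from the tip. The share in neither was 19.3%, 19.1%, 16.0%, 12.3% (10 of 81 regions) and 21.4%. Over all chromosomes these shares were 65.7% and 21.8%, close to those of the part nearest the centromere.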
